A study of Mus musculus with 18 samples.

Results

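Imprinted genes are transcribed mainly from the copy inherited from 1 parent. The 42 genes described here are a list of well-known imprinted mouse genes, chosen by symbol, and all 42 symbols were found among the 52636 genes of the deposited tables. They comprise 35 protein-coding genes and 7 non-coding ones and lie on 9 chromosomes, 16 of them on chromosome 7 and 6 on chromosome 12. From general knowledge of mouse imprinting, 23 are usually expressed from the paternal copy, 17 from the maternal copy and 2 from both, depending on tissue or promoter. Poly-A RNA was sequenced from testis, brain and liver of C57BL/6 male mice aged 8 weeks. The mice were Pcgf6 knockout (KO) or wild type (WT), and each tissue had 3 KO libraries, numbered 4 to 6, and 3 WT libraries, numbered 1 to 3, making 18 libraries. The labels name no agent, Cre driver or other allele, and they do not say whether the libraries of a group come from separate animals, so p-values measure the spread between these libraries. The mice carry 1 inbred background, so no value here separates the maternal from the paternal copy.

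Imprinting is laid down in the germ line as DNA methylation at imprinting control regions, and it is kept in somatic tissues by zinc finger proteins such as ZFP57 together with TRIM28 and DNMT1. A control region often governs a cluster that holds paternally and maternally expressed genes and a long non-coding RNA. Many of the products act on fetal growth, the placenta or the brain, and several growth-promoting members are silenced in the liver after birth. Pcgf6 belongs to PRC1.6, a variant polycomb complex that reaches its targets through E-box-binding and E2F-site-binding partners and is known for silencing germ cell genes in other tissues. The comparisons ask where the imprinted genes are transcribed and whether their levels differ when Pcgf6 is disrupted.

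Testis libraries held 20098777 to 23335596 reads, brain libraries 20759022 to 23183662 and liver libraries 18990130 to 23529098. Pcgf6 itself was at 47.6% of WT in KO testis, 79.3% in KO brain and 39% in KO liver, with every KO library below every WT library in each tissue. The KO against WT test used below (limma, adjusted p under 0.05) did not call Pcgf6 in any tissue. Its adjusted p was 0.0638 in testis and 0.485 in liver. Sums of 5 defining genes per tissue were high where the labels place them: the testis list reached 1.74e+04 FPKM or more in every testis library, the brain list 840 or more in every brain library and the liver list 5.12e+04 or more in every liver library. Testis library WT 3 stood apart from WT 1 and WT 2, with a mean chi-square per gene of 33.8 and 33.4 against them, where WT 1 and WT 2 gave 3.86 against each other. Pairs of liver libraries within a genotype gave 27.2 to 56.6, and pairs of brain libraries 5.54 to 9.76. In bulk tissue, fewer cells of a type and less RNA per cell cannot be told apart.

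Several members are hosts of microRNAs, small RNAs that pair with messages through a seed at bases 2 to 8. Their mature sequences show what the host transcripts can carry besides their own message. By the positions of the hairpins in the RefSeq table, 14 lie in Mirg, 3 in Rian, 2 in Calcr and 1 each in H19, Igf2, Meg3, Mest and Usp29 on the strand of the host. Rtl1 has 1 on its own strand and 6 on the opposite strand. The annotation of the deposited genes also places Mir1906-1 within Meg3, for which no hairpin was matched. The poly-A libraries measured the hosts and not the mature microRNAs. The sequences below are from RefSeq (GRCm38.p6), written 5′ to 3′ with the seed in capitals. They are examples, 1 each from H19, Igf2, Mest, Meg3 and Rian and 1 from Mirg, with the pair of distinct Mirg microRNAs that share a seed, the only seed shared among the mature forms found.
mmu-miR-675-5p of H19: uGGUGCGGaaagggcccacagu
mmu-miR-483-3p of Igf2: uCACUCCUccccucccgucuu
mmu-miR-335-5p of Mest: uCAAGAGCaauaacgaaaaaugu
mmu-miR-770-5p of Meg3: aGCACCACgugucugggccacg
mmu-miR-370-3p of Rian: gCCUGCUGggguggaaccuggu
mmu-miR-134-5p of Mirg: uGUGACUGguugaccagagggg
mmu-miR-453 of Mirg: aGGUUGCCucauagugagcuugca
mmu-miR-496a-5p of Mirg: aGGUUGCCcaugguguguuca

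The promoters were searched for 3 short motifs on both strands, in RefSeq windows of 300 bases around a gene's start; 33 of the 42 members had at least 1 window. The letters CACGTG, an E-box of the kind bound by MGA and MAX in PRC1.6, were in windows of 3 members (Igf2r, Plagl1 and Ppp1r9a), which is 9.09% of the 33, against 8.09% of all 27025 genes with a window. The E2F-like letters GGCGGGAA were in 1 (Gnas), 3.03% against 2.52%. The letters TGCCGC, the core recognised by ZFP57 when methylated, were in 11 members, 33.3% against 13.1% of all genes. These were Calcr, Commd1, Grb10, Igf2, Meg3, Mest, Nap1l5, Nnat, Plagl1, Snrpn and Zim1. A match describes letters only and was not tested as a binding site. Shown are the window of Ppp1r9a, whose level differed between genotypes in liver at an unadjusted threshold, with its E-box in capitals (chr6:4903061-4903360, plus strand), and the windows of Nap1l5 (chr6:58907077-58907376, minus strand) and Nnat (chr2:157559828-157560127, plus strand), which are brain-rich members, with the ZFP57 letters or their reverse complement in capitals. Of the other members past that threshold in liver, Peg10, Sgce and Cdkn1c had no window to search, and Ndn had no E-box. Igf2r and Plagl1, which have an E-box, overlapped between genotypes in liver (log2 fold change 0.17 each). A link between the E-box and the level was not tested.
Ppp1r9a promoter: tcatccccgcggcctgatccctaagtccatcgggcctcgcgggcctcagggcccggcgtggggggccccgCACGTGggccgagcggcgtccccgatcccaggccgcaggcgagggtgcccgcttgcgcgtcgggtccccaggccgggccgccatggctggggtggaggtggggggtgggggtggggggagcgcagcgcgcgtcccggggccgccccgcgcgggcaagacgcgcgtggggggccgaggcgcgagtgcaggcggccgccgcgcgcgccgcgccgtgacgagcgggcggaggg
Nap1l5 promoter: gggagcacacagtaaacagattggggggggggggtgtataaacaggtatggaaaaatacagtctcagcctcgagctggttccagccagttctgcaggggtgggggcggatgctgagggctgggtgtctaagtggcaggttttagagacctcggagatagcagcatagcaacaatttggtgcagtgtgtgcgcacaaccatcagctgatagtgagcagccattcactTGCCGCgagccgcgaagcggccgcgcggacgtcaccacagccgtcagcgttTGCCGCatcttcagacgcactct
Nnat promoter: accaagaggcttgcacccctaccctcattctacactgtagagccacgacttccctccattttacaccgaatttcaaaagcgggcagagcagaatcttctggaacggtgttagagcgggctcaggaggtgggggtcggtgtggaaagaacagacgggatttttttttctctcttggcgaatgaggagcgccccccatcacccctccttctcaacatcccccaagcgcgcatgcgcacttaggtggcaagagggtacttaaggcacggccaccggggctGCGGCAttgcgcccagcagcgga

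Across WT tissues most of these genes were highest in brain. The highest mean level was in testis for 8 members, in brain for 30 and in liver for 4, the last being Slc38a4, Slc22a18, Igf2r and Phlda2, of which Phlda2 had too few reads for a test. Levels are FPKM, which here divide reads by gene length and by a size for each library, so levels of different genes can be set beside each other. That size was in proportion to the median ratio of a library's reads to their geometric mean over all libraries, and not to its total. The median member stood at 1.09 FPKM in testis, 4.55 in brain and 0.245 in liver. Means of at least 1 FPKM were reached by 23 members in testis, 30 in brain and 15 in liver, and means under 0.1 FPKM were seen for 7, 2 and 15 members in the same order.

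WT brain exceeded WT liver for 35 of the 41 members tested and was lower for 4, in limma on log2(FPKM + 0.1) at an adjusted p under 0.05 over all genes tested. Over all genes, 40.3% were higher in brain by the same rule and 27.8% lower. The median log2 difference was 3.24 for the members and 0.15 for all genes. Of the 41 members, 6 (Calcr, Zim1, Magel2, Rtl1, Dio3 and Kcnk9) passed the filter on reads through the brain libraries alone and 1 (Ascl2) through testis alone, which fixes their direction. Without these 7, brain was higher for 29 of 34 members and lower for 4. Among the 34, Asb4, Nap1l5, Usp29, H19, Igf2, Dlk1 and Mirg had fewer than 10 reads in every WT liver library. They passed through brain and testis, so for them the filter itself favours lower values in liver. WT testis exceeded WT liver for 21 members and was lower for 9, where 56.7% of all genes were higher in testis and 28.8% lower. Against WT brain, WT testis was higher for 7 members and lower for 30, where 48.9% of all genes were higher in testis and 34.9% lower. The members' medians were 0.33 for testis over liver and -2.60 for testis over brain, beside 0.88 and 0.39 for all genes. Without the 7 members that passed through 1 tissue alone, testis over liver gave 19 higher and 9 lower, and testis over brain 6 higher and 24 lower. The medians of all genes depend on genes read in testis alone, which leave the test when a testis library is left out: without any 1 WT testis library they were 0.28 to 0.29 for testis over liver and -0.12 to -0.11 for testis over brain, where the members had 0.27 to 0.46 and -2.79 to -2.60. Rescaled to TPM (values summing to the same total in each library), the counts became 38 higher and 2 lower for brain over liver, 30 and 5 for testis over liver, and 4 and 32 for testis over brain. With TPM the medians of all genes were 1.4, 1.81 and -0.08, so part of any difference between tissues depends on the scaling; relative to these, the members' medians with TPM were 4.90, 1.01 and -3.59.

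In brain, the most abundant member was Nap1l5, an intronless member of the nucleosome assembly family whose promoter is printed above. It measured 188, 193 and 178 FPKM in WT brain 1 to 3, against 0.123, 0.142 and 0.0364 in WT liver 1 to 3. Testis was as low as liver for this gene, at 0.0677, 0.126 and 0.244 FPKM. Snrpn, which encodes a spliceosomal Sm protein of neurons, measured 127, 113 and 122 FPKM in WT brain, against 1.54, 2.00 and 2.49 in WT liver. Meg3, the maternal long non-coding RNA of distal chromosome 12, measured 100, 113 and 125 FPKM in WT brain, against 0.242, 0.105 and 0.386 in WT liver. For all 3 genes brain did not overlap with liver, with log2 differences of 9.91 for Nap1l5, 5.87 for Snrpn and 8.44 for Meg3. In testis these 3 genes averaged 0.146, 1.97 and 1.37 FPKM.

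Liver had a different leading set. Slc38a4, a neutral amino acid transporter, measured 0.274, 0.246 and 0.839 FPKM in WT testis 1 to 3 and 0.1, 0.121 and 0.287 in WT brain 1 to 3, against 556, 510 and 370 in WT liver 1 to 3. Slc22a18, an organic cation transporter of distal chromosome 7, measured 8.64, 6.9 and 8.17 FPKM in WT testis and 0.148, 0.217 and 0.323 in WT brain, against 69.3, 62.4 and 56.7 in WT liver. Igf2r, the receptor that clears Igf2, followed at 3.48, 3.49 and 1.90 FPKM in WT testis and 5.19, 4.72 and 4.49 in WT brain, against 8.67, 8.5 and 7.3 in WT liver. Brain was below liver for Slc38a4, Slc22a18, Igf2r and the copper metabolism gene Commd1 in the deposited scaling. With TPM the sign turned for Igf2r (log2 difference -0.75, TPM 0.75) and Commd1 (-0.47, TPM 1.02). Slc38a4 (-10.84) and Slc22a18 (-7.61) stayed below under TPM, at -9.87 and -6.50.

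The testis leaders were Asb4, Trappc9 and Slc22a18. Asb4, an adaptor of a ubiquitin ligase, measured 13.8, 14.2 and 10.7 FPKM in WT testis, against 0.467, 0.806 and 0.726 in WT brain and 0.115, 0.0831 and 0.0341 in WT liver, so that testis did not overlap with either. Trappc9, a subunit of a vesicle trafficking complex, measured 12.3, 13.1 and 11.6 FPKM in WT testis, against 10.5, 8.96 and 9.50 in WT brain and 3.23, 3.17 and 3.44 in WT liver. Its testis over brain difference was 0.35 on the log2 scale and turned to -0.22 with TPM. The cell cycle inhibitor Cdkn1c was also highest in testis, at a mean of 7.46 FPKM, against 2.91 in WT brain and 0.910 in WT liver. Mkrn3, H19, Ascl2, Kcnq1ot1 and Commd1 were the other members with their highest mean there; of these, Mkrn3 and Kcnq1ot1 did not pass the test against brain, with adjusted p of 0.0708 and 0.118 in limma. With TPM the calls of H19 (log2 difference 1.01, TPM 0.74) and Commd1 (0.79, TPM 0.23) against brain were lost too, at adjusted p of 0.0532 and 0.133 in limma.

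Among members with at least 1 FPKM in 1 tissue and under 0.1 in the others, all 4 were brain genes. The potassium channel Kcnk9 measured 14.9, 14.4 and 16.4 FPKM in WT brain and had no read in any of the 6 liver libraries. Set against a floor of 3 reads per library, WT brain was at least 88.5-fold higher than WT liver. Usp29, a ubiquitin peptidase, measured 1.98, 1.63 and 1.89 FPKM in WT brain and also had no liver read, at least 159-fold higher. Magel2, a MAGE family gene of the Prader-Willi region, measured 1.21, 0.756 and 1.41 FPKM in WT brain and was without liver reads, at least 25.1-fold higher. Zim1, a zinc finger gene, measured 1.30, 1.44 and 1.24 FPKM in WT brain, against 0.00932, 0 and 0.0083 in WT liver. In testis their means were 0.022 FPKM for Kcnk9, 0.0353 for Usp29, 0.00599 for Magel2 and 0.0334 for Zim1. Rtl1 and Ascl2 had no liver read either; these floors cover counting error only.

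By cluster, and leaving out the members that passed the filter through 1 tissue alone, brain was above liver for 4 of 4 members of distal chromosome 12 (Dlk1, Meg3, Rian and Mirg), 4 of 4 of central chromosome 7 (Ube3a, Snrpn, Ndn and Mkrn3), 4 of 4 of proximal chromosome 6 (Sgce, Peg10, Ppp1r9a and Asb4) and 2 of 2 of proximal chromosome 7 (Peg3 and Usp29). Of these, Dlk1, Mirg, Asb4 and Usp29 had fewer than 10 reads in every WT liver library and passed the filter through brain and testis. For these genes the filter itself favours brain above liver. Distal chromosome 7 was mixed, with 4 of 6 members higher in brain and 1 lower, and testis above liver for 4 of those 6. The same limit holds for Igf2 and H19 there. Within the chromosome 12 cluster, the non-coding Meg3 and Rian led in brain: WT brain held a mean of 113 FPKM of Meg3, 26.5 of Rian and 3.13 of Mirg, beside 5.31 of Dlk1, a membrane ligand, 0.948 of Dio3, which inactivates thyroid hormone, and 0.764 of the retrotransposon-derived Rtl1. In testis the order among them differed, with Mirg at 1.54 ± 0.0423 FPKM close to Meg3 at 1.37 ± 0.271 (SD, n = 3), a difference within the spread of Meg3.

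**Figure D1:**
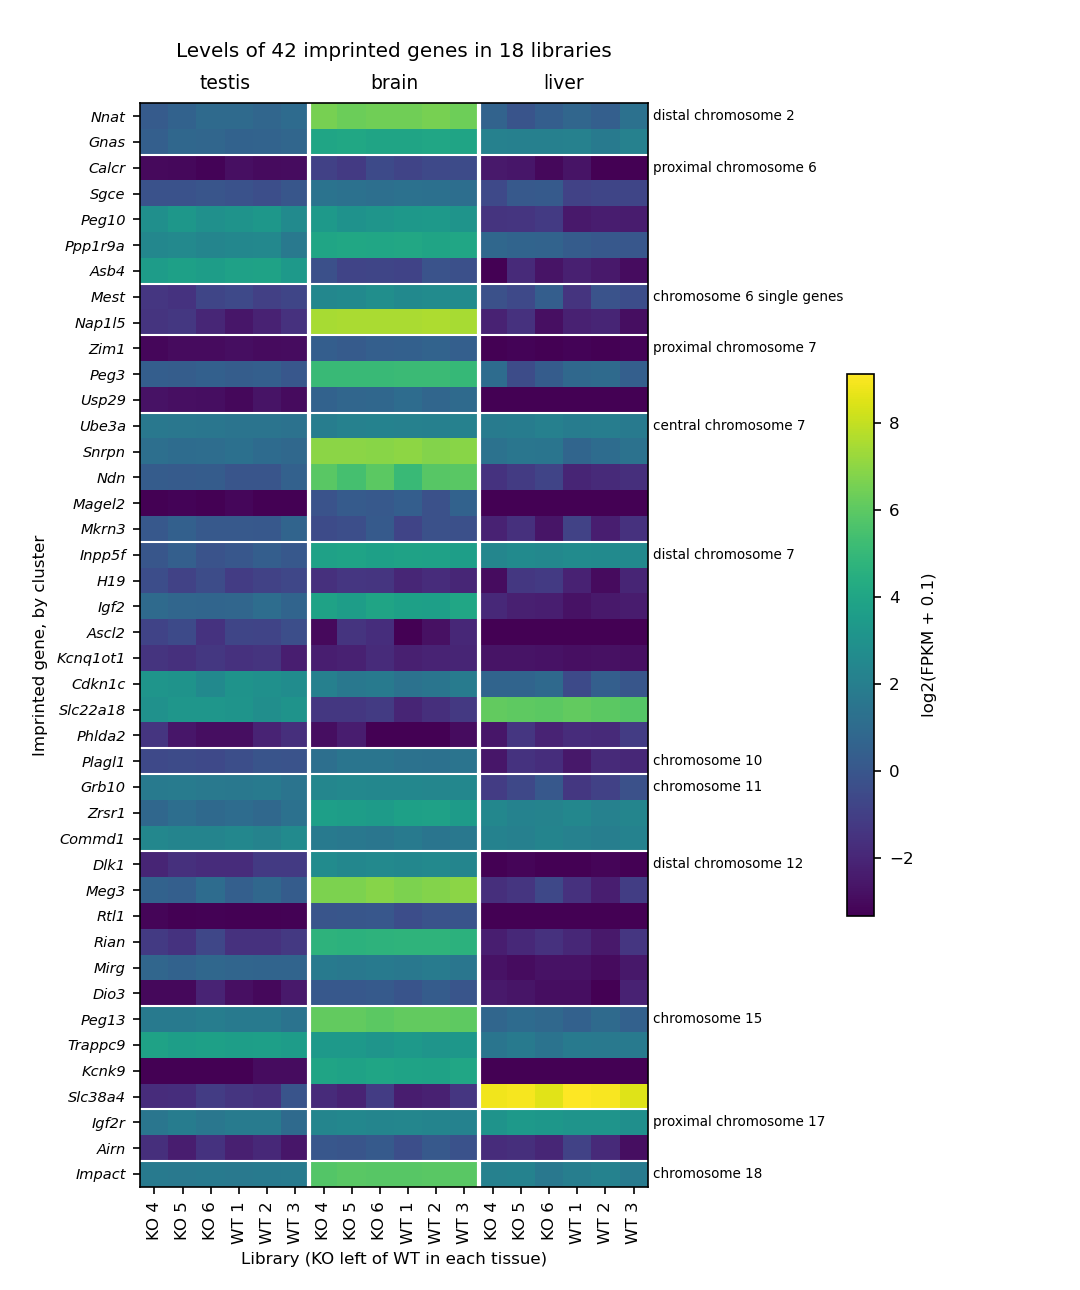
Levels of the 42 imprinted genes as log2(FPKM + 0.1), colour scale at the right, in 18 libraries along the horizontal axis (testis, brain, liver; KO left of WT) and genes down the page by cluster. Brain columns are brightest for most rows, with Nap1l5 at a WT mean of 186 FPKM, whereas Slc38a4 and Slc22a18 are brightest in liver and Asb4 in testis.

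In liver, none of the 26 members with enough reads for the test (10 or more in 3 or more libraries of 6) was called between KO and WT at an adjusted p under 0.05 in limma, where 0.0212% of all genes were called. At an unadjusted p under 0.05 there were 5 members, all higher in KO, against 4.38% of all 14124 genes tested. Limma voom called 0 members with 4 at an unadjusted p under 0.05, where 670 of the 14124 genes passed. Voom with quality weights called 0 with 6, where 807 genes passed. The 5 were Peg10, Ppp1r9a, Sgce, Cdkn1c and Ndn. With a replicate block by the numbers in the file names, 0 members were called and 7 had an unadjusted p under 0.05 (background 7.61%). These were the same 5, Snrpn, higher in KO, and Nnat, lower in KO. The genotypes did not overlap, with KO higher, in 7 members (background 4.94%), and KO was lower without overlap in 0 (background 4.58%). The median log2 fold change was 0.11 over the 26 members and 0.00 over all genes, and 19 of the 26 were above 0, against 50.2% of all genes. By parental origin, 8 of 9 tested maternal members and 9 of 15 tested paternal members were above 0. The number at an unadjusted p under 0.05 was 3 without WT 1, 4 without WT 2 and 5 without WT 3. It was 6 without KO 4, 3 without KO 5 and 2 without KO 6. Over all genes, 688, 517, 698, 749, 596 and 510 passed in these fits, in that order. Without WT 2, without KO 4, with voom and quality weights and in the fit over all 18 libraries, 1 passing member was lower in KO.

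The 3 members of proximal chromosome 6 that could be tested were all higher in KO liver at the unadjusted threshold. Peg10 (ENSMUSG00000092035, chr6:4747306-4760517 in mm10), a paternally expressed gene derived from a retrotransposon and needed for the placenta, measured 0.263, 0.281 and 0.336 FPKM in KO 4 to 6, against 0.0791, 0.098 and 0.0906 in WT 1 to 3. The groups did not overlap, and the KO mean was 3.28 times the WT mean on 80 reads in KO and 26 in WT. On the log2(FPKM + 0.1) scale the change was 1.05 ± 0.21 (SE, limma adjusted p = 0.527). The value depends on the pseudocount at this low level: over 15 alternatives it ran from 0.25, with a pseudocount of 1, to 1.62, with voom. The adjusted p ran from 0.00258 to 1.00, and was past 0.05 in 1 of them, the fit over all 18 libraries. That fit pools the spread of liver with that of the less variable brain libraries. Peg10 had a KO mean of 9 FPKM in brain and 8.01 in testis, so the KO liver level was far below either.

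Sgce (ENSMUSG00000004631, chr6:4674350-4747207), the paternally expressed epsilon-sarcoglycan of muscle and brain membranes, starts 99 bases from Peg10 on the opposite strand. It measured 0.57, 1.01 and 1.06 FPKM in KO liver 4 to 6, against 0.455, 0.499 and 0.512 in WT liver 1 to 3. KO 4 was only slightly above the highest WT library, and the log2 fold change was 0.70 ± 0.25 (SE, limma adjusted p = 1.00). With a pseudocount of 1 it was 0.33, and without KO 4 it was 0.95. Ppp1r9a (ENSMUSG00000032827, chr6:4902917-5165661), the actin-binding scaffold neurabin, starts 155611 bases from Peg10. It measured 1.70, 1.53 and 1.46 FPKM in KO liver, against 1.11, 0.985 and 0.956 in WT liver, with no overlap. Its log2 fold change was 0.57 ± 0.16 (SE, limma adjusted p = 0.808). With a pseudocount of 1 it was 0.34. Peg10 and Sgce overlap no other annotated gene, and Ppp1r9a overlaps only genes of the same strand. Calcr, the calcitonin receptor, had 9 reads in KO liver and 3 in WT liver, and Asb4 had 14 and 13, too few to test.

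Other genes around this cluster were measured as well. Within 1.5 Mb on each side of the Peg10 start, a window chosen after the values were seen, 15 other genes were tested in liver. KO exceeded WT without overlap in 0 of them and was below WT without overlap in 2. Their median log2 fold change was 0.02 and their range -0.67 to 0.46. None had an unadjusted limma p under 0.05, and none was called. Among the 15 were Tfpi2, Casd1, Pon3 and Pon2, from the list of other imprinted genes given below. Their log2 fold changes in liver were 0.13, 0.07, -0.04 and -0.14, with KO below WT without overlap for Pon2. In brain the same cluster had 5 tested members with a median of -0.10, and in testis 4 with a median of 0.03; none of these was separated by genotype in either. Calcr, with 5 reads in KO testis and 10 in WT testis, was separated but not tested there, at 0.0226, 0.0203 and 0.0104 FPKM in KO and 0.0425, 0.0298 and 0.0314 in WT.

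**Figure D2:**
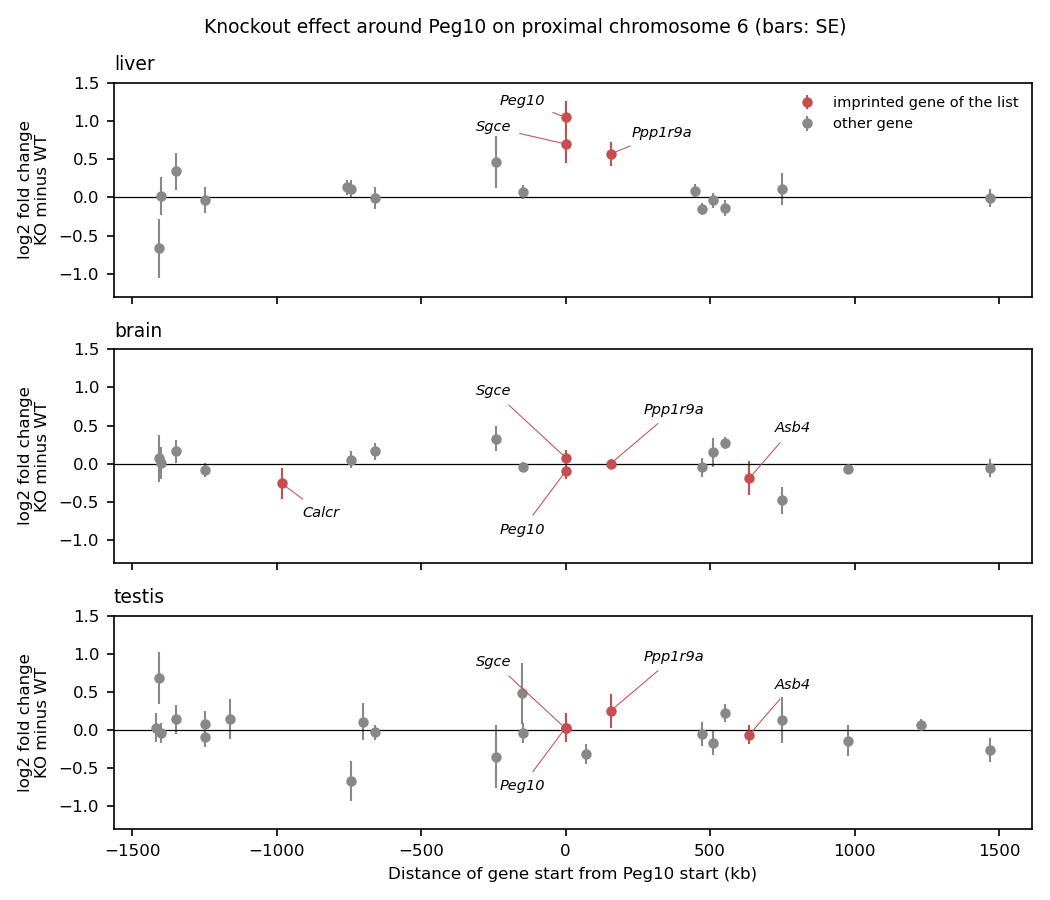
Log2 fold change, KO minus WT, of each tested gene (vertical axis, bars are SE) against the distance of its start from the Peg10 start in kb (horizontal axis), in liver, brain and testis from top to bottom. Red points are members, grey points are other genes; in liver Peg10, Sgce and Ppp1r9a lie at 1.05, 0.70 and 0.57, and the other 15 genes between -0.67 and 0.46.

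Elsewhere in liver, Cdkn1c (ENSMUSG00000037664, chr7:143458339-143461050), a maternally expressed cyclin-dependent kinase inhibitor, measured 1.52, 1.52 and 1.82 FPKM in KO 4 to 6, against 0.591, 1.25 and 0.889 in WT 1 to 3. The groups did not overlap, and the WT libraries differed widely among themselves. The log2 fold change was 0.82 ± 0.26 (SE, limma adjusted p = 0.962). Over its alternatives the value ran from 0.47, with a pseudocount of 1, to 1.05, without WT 2. Ndn (ENSMUSG00000033585, chr7:62346569-62350262), necdin, a paternally expressed growth suppressor of neurons, measured 0.259, 0.349 and 0.481 FPKM in KO liver, against 0.143, 0.177 and 0.218 in WT liver. The separation rests on 55 reads in KO and 29 in WT, with a log2 fold change of 0.71 ± 0.26 (SE, limma adjusted p = 1.00). It ran from 0.21, with a pseudocount of 1, to 0.96, with voom and quality weights. Snrpn, of the same cluster as Ndn, was separated by a narrow margin, at 2.51, 2.90 and 2.72 FPKM in KO against 1.54, 2.00 and 2.49 in WT (log2 fold change 0.44 ± 0.19, SE, limma adjusted p = 1.00). The last separated member, the long non-coding RNA Kcnq1ot1, averaged 0.0559 FPKM in KO and 0.0439 in WT, with a log2 fold change of 0.12. Igf2, a growth factor that the liver makes mainly before birth, was likewise separated at a trace level, with 30 reads in KO and 19 in WT, and was not tested.

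**Figure D3:**
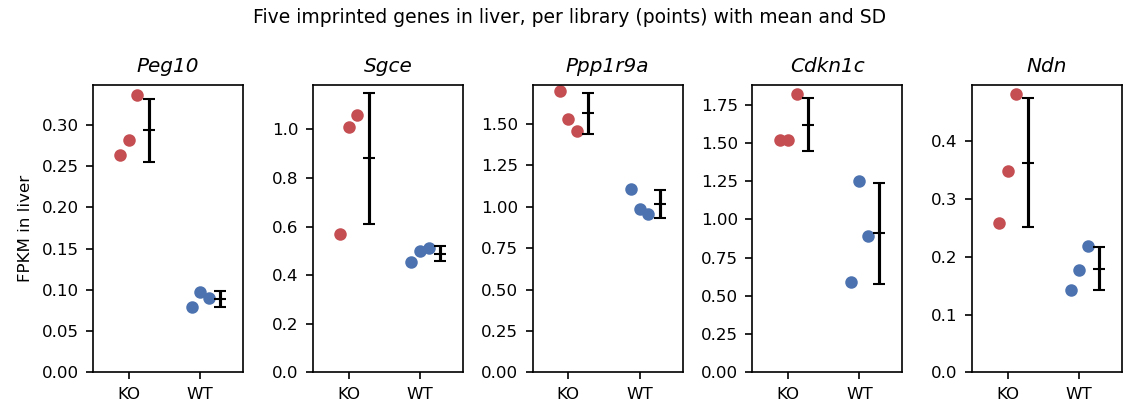
FPKM per liver library (vertical axis, starting at 0) for Peg10, Sgce, Ppp1r9a, Cdkn1c and Ndn, KO left of WT, with points for libraries and a bar for mean and SD over 3 libraries. In all 5 panels every KO point lies above every WT point, most narrowly for Sgce (0.57 against 0.512) and Ndn (0.259 against 0.218).

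Other cell types in the liver libraries were measured beside these genes. The summed level of 4 cholangiocyte markers, bile duct genes, was 4.03 to 4.23 FPKM in KO and 2.56 to 3.33 in WT, without overlap, all 4 being above 0 on the log2 fold change scale and none at 0 FPKM. Stellate cell markers summed to 31.0, 62.9 and 64.2 FPKM in KO 4 to 6 and to 32.7, 70.5 and 52.6 in WT 1 to 3, so that the groups overlapped. Endothelial markers overlapped too, at 25.3 to 54.8 FPKM in KO and 35.9 to 52.5 in WT, as did fetal liver and red cell markers. Spermatid genes summed to 0, 8.29 and 7.25 FPKM in KO 4 to 6 and to 0.146 to 0.624 in WT. The part of bile duct cells or of spermatid RNA in the result was not tested.

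The other liver members tested overlapped between genotypes. Abundant members lay close to 0, among them Slc38a4 with 445 ± 59.4 FPKM in KO and 479 ± 96.8 in WT (SD, n = 3 each, log2 fold change -0.09) and Slc22a18 with 65.6 ± 3.49 and 62.8 ± 6.29 (0.07). Igf2r (0.17), Ube3a (0.06), Gnas (0.10), Inpp5f (-0.12), Zrsr1 (-0.01), Commd1 (0.06), Impact (-0.03), Trappc9 (-0.19) and Peg13 (0.23) had log2 fold changes between -0.19 and 0.23. Standard errors of 0.29 to 0.48 came with Nnat (-0.52), the zinc finger gene Peg3 (-0.45), Mest (0.52), Meg3 (0.38), Grb10 (0.27), Plagl1 (0.17), Airn (0.06) and Rian (0.01). None of these had an unadjusted p under 0.05 in the limma fit that gave these values. Peg3 passed in limma voom with quality weights (log2 fold change -0.81, unadjusted p = 0.0446), and Nnat passed with the replicate block. Not tested in liver were Calcr, Asb4, Nap1l5, Zim1, Usp29, Magel2, Mkrn3, H19, Igf2, Ascl2, Phlda2, Dlk1, Rtl1, Mirg, Dio3 and Kcnk9.

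In brain, where most members are abundant, 0 of 40 tested members were called by limma, against 0.0837% of all genes. A single member, H19, had an unadjusted p under 0.05, against 4.46% of all genes. Voom called 0 members with 1 at an unadjusted p under 0.05 (Usp29), where 776 of 17922 genes passed. With quality weights voom called 0 with 3, where 1068 genes passed. KO was higher without overlap for 2 members (background 4.99%) and lower for 0 (background 4.09%). The median log2 fold change was 0.01 for the members and 0.01 for all genes, and the whole range of the members was -0.26 to 0.46. The number at an unadjusted p under 0.05 was 0 without WT 1 or without KO 5 and 2 without WT 3. Over all genes, 761, 754 and 765 passed in these fits. H19 (ENSMUSG00000000031, chr7:142575529-142578143), the maternal long non-coding RNA that carries miR-675, measured 0.236, 0.294 and 0.282 FPKM in KO 4 to 6, against 0.152, 0.202 and 0.154 in WT 1 to 3. These are trace levels, with 51 reads in KO and 33 in WT and no overlap (log2 fold change 0.46 ± 0.17, SE, limma adjusted p = 1.00). The value ran from 0.12, with a pseudocount of 1, to 0.74, with voom and quality weights. Rtl1 was the other separated member, at 0.863, 0.896 and 0.952 FPKM in KO and 0.668, 0.800 and 0.824 in WT (0.22 ± 0.13, SE, limma adjusted p = 1.00).

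The abundant brain members were close between genotypes, with narrow errors. Nap1l5 measured 185 ± 3.14 FPKM in KO and 186 ± 7.78 in WT (SD, n = 3 each, log2 fold change -0.01 ± 0.07, SE). The corresponding means were 122 and 121 FPKM for Snrpn (0.01 ± 0.07), 107 and 113 for Meg3 (-0.07 ± 0.10), 87.3 and 86.9 for the neuronal membrane protein Nnat (0.01 ± 0.08), 67.6 and 68.0 for the non-coding Peg13 (-0.01 ± 0.06), and 58.9 and 60.6 for Impact, a regulator of translation under stress (-0.04 ± 0.05). Peg3, at 34.5 and 35.0 FPKM, and Rian, at 26.0 and 26.5, differed by -0.02 ± 0.06 and -0.03 ± 0.05. The 3 genes that led the liver values were at 9 ± 1.07 against 9.66 ± 0.942 FPKM for Peg10 (-0.10), 16.4 ± 0.52 against 16.4 ± 0.986 for Ppp1r9a (-0.00) and 2.41 ± 0.17 against 2.28 ± 0.143 for Sgce (0.08).

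Ndn varied more in brain than other abundant members, and not by genotype. It measured 60.8, 43.0 and 62.3 FPKM in KO 4 to 6, against 34.9, 59.1 and 61.2 in WT 1 to 3, so that KO 5 and WT 1 were low and the groups overlapped. Hypothalamic markers, 8 genes of a region rich in several imprinted transcripts, summed to 74.9, 51.8 and 67.7 FPKM in KO and 75.3 to 79.4 in WT, without overlap; 1 of the 7 tested markers was above 0 and none was at 0 FPKM. Magel2, which is known from the hypothalamus, measured 0.804, 1.10 and 1.03 FPKM in KO and 1.21, 0.756 and 1.41 in WT, with overlap. Choroid plexus markers (11.7 to 13.2 FPKM in KO, 12.2 to 13.6 in WT) and meningeal markers (8.90 to 12.1 and 9.27 to 12) overlapped, and so did Igf2, a growth factor made there, at 12.1 to 15.5 FPKM in KO and 12.8 to 16.5 in WT. Pituitary markers stood at 23.0 FPKM in KO 5 and at 2.60 to 5.03 in the other brain libraries. Cerebellar granule cell markers summed to 108 to 131 FPKM in KO and 60 to 108 in WT, and the general brain markers to 906 to 928 in KO and 840 to 857 in WT, the second without overlap. The part of these cell types in any difference was not tested. The remaining brain members had unadjusted p above 0.05; Calcr (-0.26), Slc22a18 (0.38), Slc38a4 (0.31), Cdkn1c (0.27), Usp29 (-0.21) and Mkrn3 (0.22) were farthest from 0, and Ascl2 and Phlda2 had too few reads.

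In testis, 0 of 35 tested members were called by limma, against 0.00448% of all genes, and 0 had an unadjusted p under 0.05, against 4.13%. Voom called 0 members with 1 at an unadjusted p under 0.05 (Plagl1), where 800 of 22341 genes passed. With quality weights voom called 0 with 4, where 1732 genes passed. A single member was separated upward (background 7.57%) and 1 downward (background 4.32%). Plagl1, a zinc finger transcription factor, measured 0.570, 0.620 and 0.575 FPKM in KO 4 to 6, against 0.681, 0.839 and 0.811 in WT 1 to 3 (log2 fold change -0.35 ± 0.16, SE, limma adjusted p = 0.871). Ube3a, the ubiquitin ligase of Angelman syndrome, measured 3.03, 2.97 and 2.85 FPKM in KO, against 2.62, 2.62 and 2.52 in WT (0.18 ± 0.11, SE, limma adjusted p = 0.871). The median log2 fold change was 0.03 for the members and 0.03 for all genes, and 22 of 35 members were above 0, against 56.5% of all genes.

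The main testis members overlapped between genotypes. Asb4 averaged 12.3 ± 0.928 FPKM in KO and 12.9 ± 1.94 in WT, Trappc9 13.4 ± 1.07 and 12.3 ± 0.753, Peg10 8.01 ± 1.23 and 7.90 ± 1.75, Slc22a18 8.6 ± 0.81 and 7.90 ± 0.901, and Cdkn1c 7.65 ± 1.55 and 7.46 ± 0.892 (SD, n = 3 each). Peritubular myoid markers summed to 31.7 to 36.4 FPKM in KO and to 33.1, 38.2 and 59.8 in WT 1 to 3, and Leydig and Sertoli cell sums were also highest in WT 3, at 750 and 116 FPKM. In that library Ppp1r9a was at 3.13 FPKM, against 5.24 and 5.54 in WT 1 and WT 2, and Slc38a4 at 0.839 against 0.274 and 0.246. General brain markers summed to 7.23 to 9.33 FPKM in KO testis and 5.56 to 7.17 in WT testis, without overlap, and their part was not tested. Without WT 3, 0 members were called by limma and 0 had an unadjusted p under 0.05, and the second number was 1 without WT 1 or without KO 5 and 2 without KO 6. Over all genes, 1089 passed without WT 3, 1246 without WT 1, 885 without KO 5 and 581 without KO 6. The widest values in testis were Nap1l5 (0.50), Slc38a4 (-0.50), Mest (-0.44), Dlk1 (-0.40), Airn (0.39), Nnat (-0.35) and Ascl2 (-0.34). Calcr, Zim1, Magel2, Rtl1, Dio3, Kcnk9 and Phlda2 had too few reads; Phlda2, a growth restrictor of the placenta, was tested in no tissue.

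**Figure D4:**
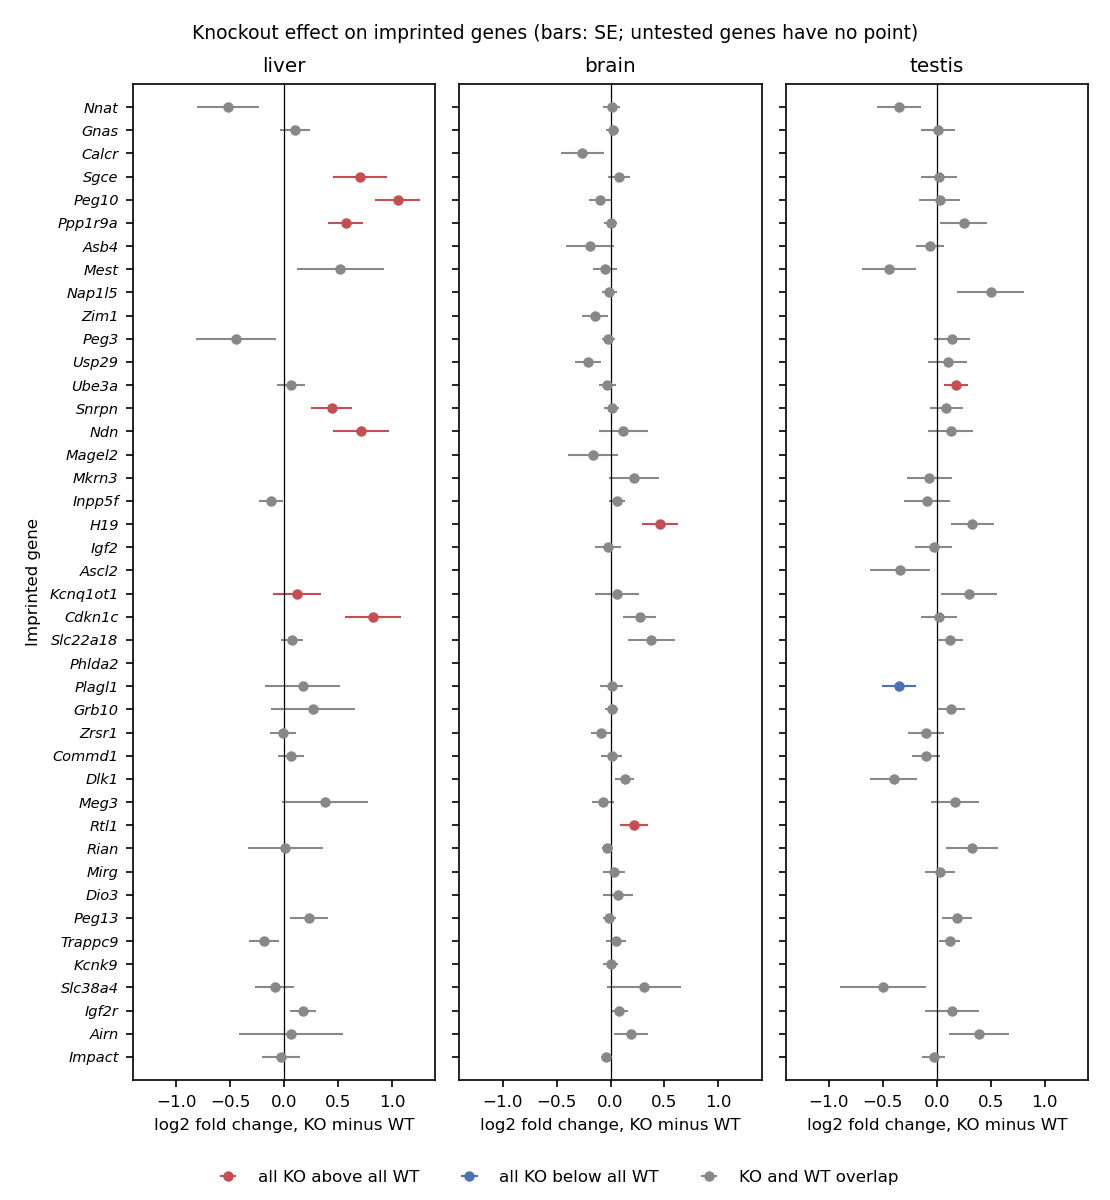
Log2 fold change, KO minus WT, with SE bars (horizontal axis) for each imprinted gene (vertical axis) in liver, brain and testis; red marks members whose KO libraries all exceed the WT ones, blue the reverse and grey those that overlap. Red points number 7 in liver, 2 in brain and 1 in testis, and brain has the narrowest bars.

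Whether the liver effect differed from that of the other tissues was tested as an interaction of genotype and tissue in limma. Each fit took 1 spread per gene over both tissues, although liver libraries differed among themselves more than brain libraries. The SE of Peg10 and Ppp1r9a for brain minus liver are smaller than their SE in liver alone, 0.21 and 0.16. Where liver varies more, such p-values are too small. For brain minus liver, 0 of 26 members were called (background 0%) and 4 had an unadjusted p under 0.05 (background 4.84%). Peg10 had a difference of KO effects of -1.15 ± 0.18 (SE, limma adjusted p = 0.236) and Ppp1r9a of -0.57 ± 0.13 (limma adjusted p = 0.401); Sgce (-0.62) and Snrpn (-0.42) were the others. For testis minus liver, 0 of 26 were called (background 0.0457%) and 3 had an unadjusted p under 0.05 (background 4.61%), Peg10 (-1.02 ± 0.26, limma adjusted p = 0.564), Sgce (-0.67) and Cdkn1c (-0.80). For testis minus brain, 0 of 34 were called (background 0.0626%) and only Dlk1 (-0.53) had an unadjusted p under 0.05 (background 4.56%). Over 16 alternatives the adjusted p of Peg10 for brain minus liver ran from 0.104 to 0.93.

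Ratios between neighbours in 1 library were taken on FPKM + 0.1. They depend on library scaling, and on the added 0.1, mainly for genes near that level, such as H19 in brain. There were 11 of them, over 6 gene pairs and the tissues where both genes had at least 10 reads in every library. They were compared by exact two-sided permutation, whose smallest p with 3 against 3 libraries is 0.1. The log2 ratio of Sgce to Peg10 in brain was -1.93, -1.70 and -1.93 in KO and -2.00, -2.12 and -1.98 in WT, the only ratio of the 11 without overlap (difference 0.18, exact p = 0.1, adjusted p = 0.55 over the 11). Without KO 5 the difference was 0.10. H19 to Igf2 in brain averaged -5.24 ± 0.26 in KO and -5.73 ± 0.31 in WT (SD, n = 3 each, exact p = 0.2, adjusted p = 0.55). Meg3 to Dlk1, of opposite parental origin on chromosome 12, averaged 4.18 ± 0.18 in KO brain and 4.38 ± 0.24 in WT brain (exact p = 0.5, adjusted p = 0.786; the difference of -0.20 was -0.06 without WT 3 and -0.10 without KO 4), and 2.5 ± 0.39 in KO testis and 1.93 ± 0.34 in WT testis (exact p = 0.2, adjusted p = 0.55). The ratios of Airn to Igf2r, Usp29 to Peg3 and Ube3a to Snrpn overlapped in every tissue measured, as did H19 to Igf2 and Sgce to Peg10 in testis. Airn and Igf2r overlap on opposite strands, and the counting is not stated to use strand, so reads of such pairs cannot be told apart; 22 of the 42 members overlap an antisense gene, among them Kcnq1ot1 with Kcnq1, Zrsr1 with Commd1 and Nap1l5 with Herc3. Peg13 lies within Trappc9 on the same strand.

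Lists related to the members gave no called gene by limma in any tissue. Of 52 other imprinted genes found, 33 were tested in liver, 45 in brain and 44 in testis, with 0, 3 and 0 at an unadjusted p under 0.05, where the share over all genes was 4.38%, 4.46% and 4.13%. In brain these were Th, tyrosine hydroxylase of dopamine neurons, at 4.76 ± 0.668 FPKM in KO and 7.11 ± 0.691 in WT (SD, n = 3 each, log2 fold change -0.57, limma adjusted p = 0.51), Pon2 at 4.31 and 3.56 FPKM, and Bmp1 at 18.5 and 16.7 FPKM. Factors that set or keep imprints, among them Zfp57, Trim28, Dnmt1 and Uhrf1, had 12, 12 and 14 tested genes in liver, brain and testis and 0 at an unadjusted p under 0.05. In the insulin-like growth factor axis, where Igf2, Igf2r and Grb10 act, 11, 9 and 10 genes were tested, with 1, 0 and 1 at an unadjusted p under 0.05. Igfbp1, a binding protein secreted by hepatocytes, averaged 104 ± 41 FPKM in KO liver and 37.3 ± 24.1 in WT liver (SD, n = 3 each, limma adjusted p = 0.901), and Igfbp5 0.59 ± 0.0311 in KO testis and 1.06 ± 0.287 in WT testis (limma adjusted p = 0.871).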

How the data were processed

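Poly-A RNA was sequenced in 18 libraries, 3 per genotype and tissue. Per the submitters' processing notes, the tools were HISAT2 2.0.5, featureCounts 1.5.0-p3 and DESeq2 1.16.1 with build mm10; their order and settings are not given in the sources used here. The authors deposited FPKM per gene. In each library all products of FPKM and gene length were multiples of 1 unit (tolerance 0.01, 100% of values), which gave back reads per gene; the library sizes behind FPKM differ from the totals, with a total over size of 0.823 to 0.969 in testis, 0.806 to 0.835 in brain and 1.44 to 1.52 in liver.

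KO and WT were compared within a tissue by limma 3.58.1 (R 4.3.3, with a mean-variance trend) on log2(FPKM + 0.1), leaving out genes without 10 or more reads in 3 or more libraries, with Benjamini-Hochberg adjustment over all genes tested. Fold changes on this scale understate changes of low genes. WT tissues were compared in 9 libraries and differences of KO effects in 12. Alternatives were pseudocounts of 0.01 and 1, other filters, TPM and upper quartile scaling, voom on recovered reads, a fit over all 18 libraries, replicate blocks and leaving out each library. The steps were tested on simulated reads. Of 100 genes changed 2-fold up or down, KO against WT recovered 61% in testis, 79% in brain and 64% in liver. The changed genes were drawn from genes well read in every library, so these shares do not cover members with few reads. A further 100 genes were changed 4-fold in each run. The runs gave 165 calls in testis, 181 in brain and 160 in liver, against 1, 15 and 3 in the data. An adjusted p passes more easily among many changed genes. The shares therefore overstate recovery at the call rates of the data. Values per library are given for members called, then those at an unadjusted p under 0.05, then those separated with a log2 fold change over 0.5, and across tissues for the 3 highest members and those of 1 tissue; others named with values were chosen after they were seen. The members and lists were chosen with earlier results of these data known. Promoters and microRNAs are from RefSeq (GRCm38.p6).

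Deviations from the group mean were correlated between KO and WT libraries of the same replicate number in the file names. The values were 0.372, 0.168 and 0.326 in liver, 0.0418, -0.0932 and 0.292 in brain, and 0.093, -0.0893 and 0.119 in testis. Numbers shared between tissues gave 0.145 to 0.246 for testis with liver and 0.0555 to 0.255 for brain with liver. For testis with brain they gave -0.0072 to 0.297. Libraries of different numbers were not correlated, so whether the numbers pair libraries was not tested.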

Additional observations from a re-analysis of the deposited data

How the results depend on the processing

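Of 138 alternative values for counts of called members, 137 stayed within 1.5 times the value reported. The exception was KO against WT liver, with 1 member (Peg10) called in the fit over all 18 libraries, against 0 in the liver fit. For KO against WT and for differences of KO effects the reported counts were 0, and few genes were called at all. There the alternatives show only whether a count stayed at 0, and the factor of 1.5 bears on the tissue contrasts alone. With the replicate block, KO against WT called 0 members in liver, brain and testis; the block by the number that tissues share gave 38 members for brain over liver, 29 for testis over liver and 38 for testis over brain, against 39, 30 and 37 without it. It changed no call of a member between KO and WT at an adjusted p under 0.05. In the tissue contrasts, leaving out a WT brain library left 35 members tested. With TPM, 85.7% of called members were higher in testis than in liver, against 70% in the deposited scaling. Over all called genes the shares were 79% with TPM and 66.4% in the deposited scaling. The log2 ratio of H19 to Igf2 in brain, KO minus WT, was 0.14 with a pseudocount of 1, against 0.49. In liver 16 of the 42 members had too few reads to test, and Peg10 rested on 80 reads in KO and 26 in WT.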

Other observations

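In liver, several members varied more between libraries of 1 genotype than between genotypes. Grb10, an adaptor of insulin and growth factor receptors, measured 0.359, 0.546 and 0.960 FPKM in KO 4 to 6, against 0.307, 0.424 and 0.746 in WT 1 to 3. Meg3 measured 0.216, 0.275 and 0.538 FPKM in KO and 0.242, 0.105 and 0.386 in WT, and Rian 0.105, 0.166 and 0.246 in KO and 0.161, 0.0825 and 0.291 in WT. For all 3 genes KO 6 and WT 3, which carry the same number in the file names, were the highest of their groups. Stellate and endothelial marker sums were lowest in KO 4 (31.0 and 25.3 FPKM) and WT 1 (32.7 and 35.9 FPKM), where Grb10 was lowest as well. Meg3 and Rian were lowest in KO 4 among KO libraries. Among WT libraries they were lowest in WT 2, where the marker sums were highest (70.5 and 52.5 FPKM). These patterns were noticed after the values were seen and were not tested.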
